A study of Homo sapiens with 9 samples.

Results

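SAMD9 and SAMD9L are neighbouring paralogues on the long arm of human chromosome 7, and their messenger RNAs were followed in U937-Cas9 cells. Both rows of the deposited count table whose Ensembl identifier maps to these symbols were taken, 2 of 20265 identifiers. The pair was chosen from measured values of these same libraries, among them the IRF2KO against WT difference, so its levels and differences are given as a description with no test. U937, a monocytic line established from a human lymphoma, carried Cas9, the nuclease used to make knockouts. The genotypes were sequenced with 3 libraries each: WT cells, cells labelled IRF2KO, and cells labelled IRF2KO_pIRF2, whose sample descriptions read compIRF2. All 9 libraries came from the same Cas9-carrying line, and the labels name no treatment, no time and no interferon. They do not say what pIRF2 encodes, how IRF2 was edited, or whether the knockout was 1 clone or a pool. Nor do they say that replicates were separate cultures, so p-values of other genes measure only the spread between these libraries, which may be technical.

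SAMD9 and SAMD9L encode large cytoplasmic proteins that are induced by interferon and restrict virus replication, poxviruses among them. SAMD9 is known as a nuclease that cuts phenylalanine transfer RNA, which stalls ribosomes and stops protein synthesis. Gain-of-function germline variants of either gene restrain the growth of blood cells and predispose to loss of chromosome 7 and myeloid malignancy, and mouse Samd9l has been linked to the turnover of cytokine receptors at endosomes. IRF2, the gene targeted here, belongs to the interferon regulatory factors, transcription factors that bind DNA elements built of repeated GAAA.

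Both genes lie on the minus strand of chromosome 7 in GRCh38, with coordinates from GENCODE 29 counted from 1. SAMD9 (ENSG00000205413) spans 93099513 to 93118023 and SAMD9L (ENSG00000177409) spans 93130055 to 93148369, so that 12031 bases lie between them. The longest SAMD9 transcript has 3 exons and the longest SAMD9L transcript 5, and in each the coding sequence lies within 1 exon. The coding lengths are 4767 and 4752 bases, of which 4696 bases could be aligned and 72.5% of those were identical. The longest run of letters that the longest transcripts share is 32 bases, and no run of 50 bases is shared. The exons of the genes do not overlap, so an error-free read of either longest transcript that is longer than 32 bases fits only 1 of them. Read length is not given in the sources used here.

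The promoter windows below are shown because the targeted gene, IRF2, encodes a DNA-binding factor. Whether IRF2 acts on either window was not tested. The sequences are RefSeq's on GRCh38.p14, minus strand, 5′ to 3′, and end just before the more upstream of the RefSeq and GENCODE transcript starts (chr7:93118024-93118229 for SAMD9 and chr7:93148386-93148635 for SAMD9L). Capitals mark matches to AANNGAAA, the core bound by interferon regulatory factors, and to GAAANNGAAA, the core of the interferon-stimulated response element.
SAMD9: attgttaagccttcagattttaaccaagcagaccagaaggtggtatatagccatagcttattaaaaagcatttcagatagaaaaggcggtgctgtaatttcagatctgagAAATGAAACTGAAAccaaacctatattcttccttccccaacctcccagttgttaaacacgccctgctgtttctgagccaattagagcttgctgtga
SAMD9L: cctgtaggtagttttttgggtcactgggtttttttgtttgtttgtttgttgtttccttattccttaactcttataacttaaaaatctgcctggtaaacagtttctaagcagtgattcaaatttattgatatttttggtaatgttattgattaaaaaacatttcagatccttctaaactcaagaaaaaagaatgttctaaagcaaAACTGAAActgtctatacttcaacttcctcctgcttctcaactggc

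The SAMD9 window held GAAANNGAAA once, 136 to 127 bases before the RefSeq start, and the overlapping AANNGAAA at 140 to 133 and at 134 to 127 bases before it. The SAMD9L window held AANNGAAA once, 46 to 39 bases before the start, and no GAAANNGAAA. Neither held TTCNNNGAA, the core of the gamma-activated sequence. These searches covered both strands of 300 bases, 250 before and 50 after the RefSeq start. Among 35116 promoters of that length, 3.57% held GAAANNGAAA, 22.8% held AANNGAAA and 7.66% held TTCNNNGAA. The longest runs that the windows shared on the same strand were 10 bases, and 1 of these 3 runs, AAACTGAAAC, covers the SAMD9L match. That run was found on either strand in 55 of the promoters (0.157%). The other runs, CATTTCAGAT and ATTTCAGATC, cover no marked match and were found in 33 (0.094%) and 22 (0.0626%). All were picked because both windows hold them, so these shares test nothing. A match describes letters and not binding, which was not measured.

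Library totals were 14824907 to 23108288 counts. Levels are given as CPM (counts scaled to a common TMM-adjusted library size), as the mean ± SD of 3 libraries. A floor of 3 counts corresponds to 0.130 to 0.202 CPM in a single library, and like the intervals it covers counting error only. Mitochondrially encoded genes took 12.7%, 12.9% and 17.1% of WT counts, 12.2%, 18.8% and 18.0% of IRF2KO counts and 17.3%, 17.3% and 18.0% of counts labelled pIRF2. WT replicate 1 and IRF2KO replicate 2 lay at opposite ends of the first principal component. Of 12 monocytic markers, 11 were tested and 0 passed in any of the 3 comparisons by edgeR (1, 3 and 2 at an unadjusted p under 0.05; DESeq2 called 1, higher in IRF2KO). Their summed level was 4536 to 7139 CPM in WT, 5802 to 9483 CPM in IRF2KO and 5406 to 5643 CPM in pIRF2 cells. Of the markers of T, NK and B cells, erythroid cells, megakaryocytes, epithelium and fibroblasts, CD3D, CD8A, MS4A1, HBA1, HBB, PF4, EPCAM, COL1A2 and DCN were at 0 in all 9 libraries. The 7 of these markers that could be tested included 0 calls by edgeR (1 at an unadjusted p under 0.05 in each comparison); DESeq2 called COL1A1, higher in the libraries labelled pIRF2 than in WT. Summed over each list, T and NK markers were at 290 to 358 CPM in WT, 319 to 454 CPM in IRF2KO and 327 to 344 CPM in pIRF2, nearly all of it NKG7. B cell markers were at 13.7 to 19.0, 19.6 to 30.0 and 17.7 to 19.2 CPM, epithelial and fibroblast markers at 0.261 to 1.08, 0.680 to 1.32 and 2.14 to 2.63 CPM, and erythroid and megakaryocyte markers at no more than 0.359 CPM. Their part in the differences of SAMD9 and SAMD9L was not tested. In such bulk samples, fewer cells that express a gene and less RNA per cell cannot be told apart.

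The targeted gene was measured first. IRF2 (chromosome 4) was at 37.1, 39.1 and 44.1 CPM in WT, at 23.5, 25.9 and 25.5 CPM in IRF2KO, and at 15.2, 18.1 and 18.4 CPM where pIRF2 was labelled. The 3 groups did not overlap, and the lowest level was in the libraries labelled pIRF2. IRF2 RNA fell in IRF2KO against WT (log2 fold change -0.68 ± 0.13 SE, edgeR, adjusted p = 0.043 by Benjamini-Hochberg). That call was lost in 12 of 19 alternatives, none of which reversed the direction; without 1 library the adjusted p reached 0.20 (without WT replicate 2). The level was also lower in the libraries labelled pIRF2 than in WT (-1.22 ± 0.13, adjusted p = 0.0029), and its difference from IRF2KO did not pass by edgeR (-0.53 ± 0.13, adjusted p = 0.24) and passed by DESeq2 (adjusted p = 0.015). Gene-level RNA counts do not measure IRF2 protein, and no rise of IRF2 RNA marks the libraries labelled pIRF2.

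SAMD9 was the more abundant member in WT cells. Its counts were 178, 104 and 144 in WT, 6, 5 and 10 in IRF2KO, and 91, 72 and 92 in the libraries labelled pIRF2 (replicates 1 to 3). As levels these were 9.17, 6.79 and 7.39 CPM in WT, 0.340, 0.253 and 0.564 CPM in IRF2KO, and 3.91, 3.57 and 4.38 CPM in cells labelled pIRF2. The order was IRF2KO, then pIRF2, then WT, and no 2 groups overlapped. The means were 7.78 ± 1.24, 0.386 ± 0.160 and 3.95 ± 0.409 CPM (SD, n = 3 each). The coefficient of variation was 15.9% in WT, 41.5% in IRF2KO and 10.3% in pIRF2, where counting error alone would give 8.39%, 37.8% and 10.8%. The spread among the IRF2KO libraries was close to what 5 to 10 reads allow. The fitted SAMD9 level was 20.1-fold lower in IRF2KO than in WT (log2 fold change -4.33 ± 0.27 SE). It was 10.2-fold higher in the libraries labelled pIRF2 than in IRF2KO (3.35 ± 0.28) and 1.97-fold lower there than in WT (-0.98 ± 0.19).

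SAMD9L followed another order. Its counts were 27, 21 and 16 in WT, 0 in each of 3 IRF2KO replicates, and 90, 69 and 76 in the cells labelled pIRF2. The levels were 1.39, 1.37 and 0.822 CPM in WT and 3.87, 3.42 and 3.62 CPM in cells labelled pIRF2. Here the order was IRF2KO, then WT, then pIRF2, again with no overlap, and every library labelled pIRF2 was above the highest WT library. The means were 1.19 ± 0.323 CPM in WT and 3.64 ± 0.223 CPM in pIRF2 (SD, n = 3 each), with coefficients of variation of 27.0% and 6.12% against 21.7% and 11.3% from counting alone. Over the 3 IRF2KO libraries, 0 counts allow a level of up to 0.0544 CPM. Against that floor of 3 counts over the group, SAMD9L was at least 21.7-fold lower in IRF2KO than in WT and at least 67.0-fold higher in the libraries labelled pIRF2 than in IRF2KO. Its fitted level was 3.06-fold higher in the libraries labelled pIRF2 than in WT (log2 fold change 1.61 ± 0.24 SE). The mitochondrial share was 12.7% to 17.1% in WT and 17.3% to 18.0% in pIRF2; the SAMD9L difference was 2.17 with that share as a covariate and 2.14 among the libraries over 15%, where WT is 1 library.

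**Figure D1:**
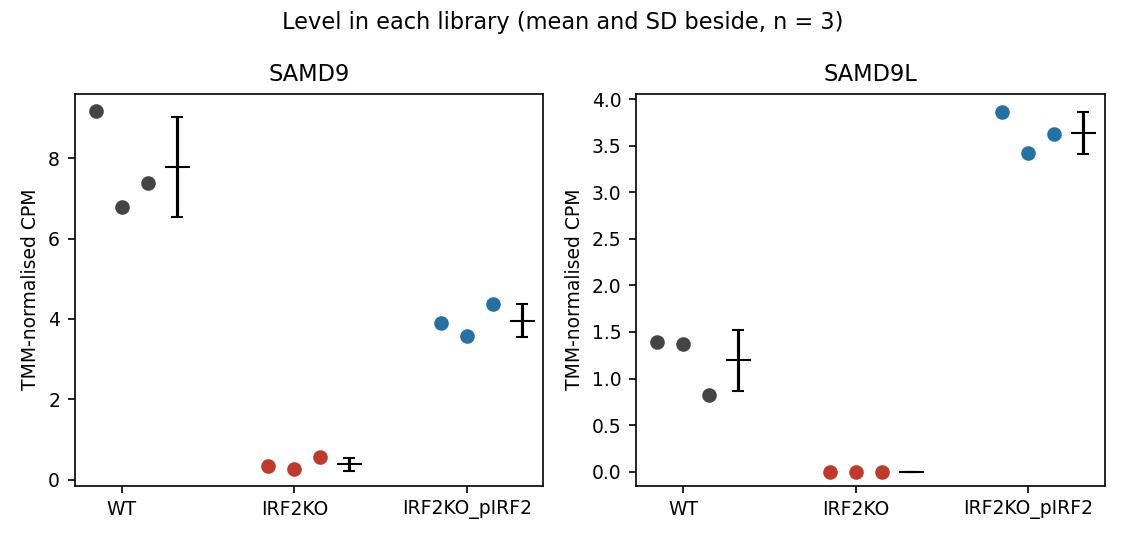
SAMD9 (left) and SAMD9L (right) in TMM-scaled CPM for WT, IRF2KO and IRF2KO_pIRF2 cells; points are libraries, bars are the mean ± SD (n = 3), and the vertical scales differ between panels. SAMD9 stood at 3.57 to 4.38 CPM in the libraries labelled pIRF2, below every WT library, and SAMD9L at 3.42 to 3.87 CPM there, above every WT library.

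Both members were past the adjusted threshold of 0.05 in IRF2KO against WT, both in pIRF2 against IRF2KO, and 0 of 2 in pIRF2 against WT (both at an unadjusted p under 0.05). Among all 11517 tested genes, 0.365% were called lower and 0.0521% higher in IRF2KO than in WT, 0.339% were called higher and 0.026% lower in pIRF2 than in IRF2KO, and 0.0347% were called higher and 0.0434% lower in pIRF2 than in WT. At an unadjusted p under 0.05 edgeR had 2149, 1291 and 452 of the 11517 genes in these 3 comparisons. Nothing is read from the members' counts, since these contrasts chose them. The last comparison depends on the test: DESeq2 called both members, limma-voom called SAMD9L, and so did edgeR without a low-count filter, with 2 groups only in the fit, or without the libraries at either end of the first component. Without IRF2KO replicate 2, edgeR called both. Groups that did not overlap are common: 8.23% of tested genes were lower and 8.97% higher in every IRF2KO library than in every WT library. For pIRF2 against IRF2KO these shares were 11.5% lower and 11.1% higher, and for pIRF2 against WT 5.75% lower and 5.81% higher.

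Levels can be compared between the paralogues only per length, here per kilobase of merged exons. On that scale SAMD9 was at 1.14 ± 0.180, 0.0562 ± 0.0234 and 0.577 ± 0.0597 CPM per kb in WT, IRF2KO and pIRF2. SAMD9L was at 0.167 ± 0.0452, 0 and 0.510 ± 0.0312 CPM per kb. The paralogues were thus far apart in WT and close to each other in the libraries labelled pIRF2. SAMD9 exceeded SAMD9L 7.13 ± 2.12 times in WT and 1.13 ± 0.111 times in pIRF2 (SD, n = 3, length-corrected ratios per library). In counts, the ratios were 6.59, 4.95 and 9 in WT and 1.01, 1.04 and 1.21 in pIRF2.

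SAMD9L made up 13.2%, 16.8% and 10% of the pair's counts in the WT libraries, with exact Clopper-Pearson 95% intervals of 8.86% to 18.6%, 10.7% to 24.5% and 5.82% to 15.7%. In the libraries labelled pIRF2 the shares were 49.7%, 48.9% and 45.2%. The means were 13.3% ± 3.40 and 48.0% ± 2.4 (SD, n = 3), and every interval in pIRF2 lay above every interval in WT. In IRF2KO the share rested on 21 pair counts, none of them SAMD9L, and the pooled interval reached up to 16.1%. That interval includes the pooled WT share of 13.1%, so a change of the share between WT and IRF2KO was not detectable at this depth. The pooled share in pIRF2 was 48.0%. Summed over the pair, the level was 8.98 ± 1.37 CPM in WT, 0.386 ± 0.160 CPM in IRF2KO and 7.59 ± 0.532 CPM in pIRF2. The pIRF2 libraries, at 7.77, 6.99 and 8.01 CPM, lay below the WT libraries at 10.6, 8.16 and 8.22 CPM.

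**Figure D2:**
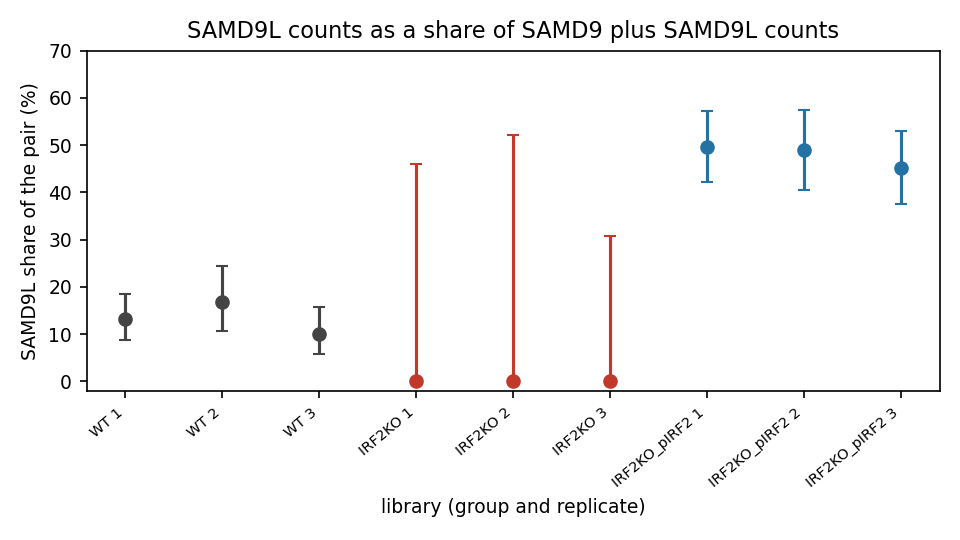
SAMD9L counts as a percentage of SAMD9 plus SAMD9L counts in each library (horizontal axis), with exact 95% binomial intervals. The share was 10% to 16.8% in WT and 45.2% to 49.7% in the libraries labelled pIRF2; the IRF2KO points at 0 rest on 5 to 10 counts each.

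The order of SAMD9, with all IRF2KO libraries below all pIRF2 libraries and these below all WT libraries, held for 65 of 11517 tested genes (0.564%). Of these 65, 32 were called lower in IRF2KO than in WT and 22 were also called higher in pIRF2 than in IRF2KO. The order of SAMD9L, with pIRF2 above WT, held for 22 genes (0.191%). Of these, 3 were called in both comparisons, SAMD9L and CTSO, a lysosomal cysteine protease, among them. CTSO was at 2.37, 1.96 and 1.95 CPM in WT, 0.850, 0.354 and 0.733 CPM in IRF2KO and 3.26, 3.17 and 2.91 CPM in pIRF2. CTSO was chosen after its values were seen.

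The members can be set among the 42 genes called lower in IRF2KO than in WT, of which 27 were called higher in pIRF2 than in IRF2KO; these comparisons share the IRF2KO libraries. SAMD9L stood at 305% of its WT mean in the libraries labelled pIRF2, the highest of the 42. SAMD9 stood at 50.8%. The other 40 genes stood at 36.4% to 157%, with a median of 67.9%. Of these 40, 4 were above 100% (among them IL12RB1 at 157%, CTSO at 149% and OAS3 at 103%), and 11 were below SAMD9. In IRF2KO the same 40 genes were at 0% to 62.2% of WT, with a median of 25.4%, and SAMD9 was at 4.95%. In pIRF2 against WT, 38 of the 42 genes were not called, 4 were called lower and 0 higher.

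**Figure D3:**
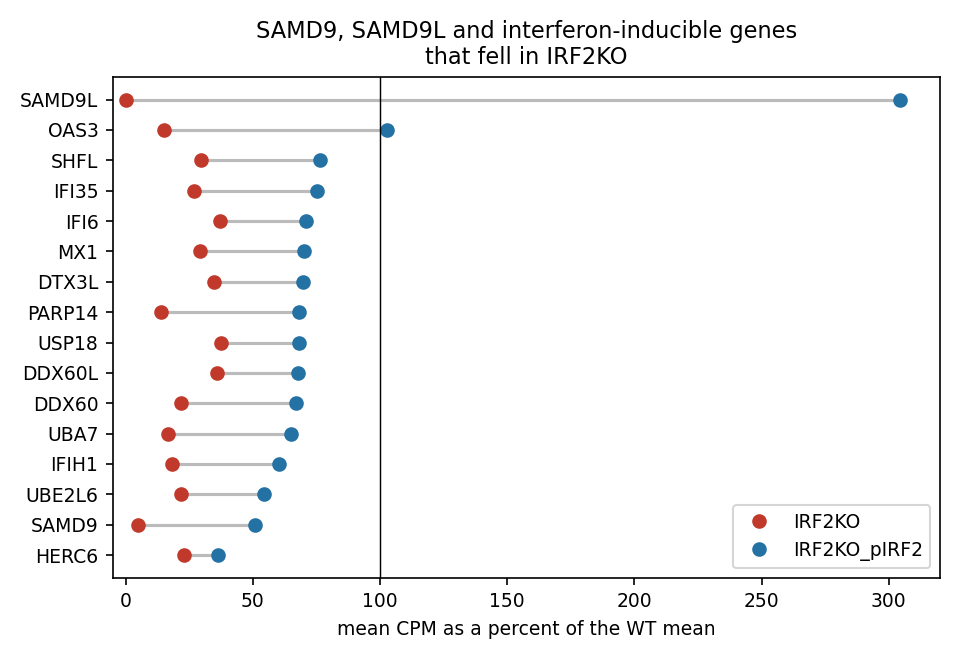
Mean level in IRF2KO and in IRF2KO_pIRF2 as a percentage of the WT mean (horizontal axis) for SAMD9, SAMD9L and the 14 interferon-inducible genes of the antiviral and translation lists that were called lower in IRF2KO; each point is a ratio of means over 3 libraries. The 14 genes stood at 13.8% to 37.6% in IRF2KO and at 36.4% to 103% in the libraries labelled pIRF2, whereas SAMD9L stood at 305% there.

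Likeness was measured as the root-mean-square difference between log2 CPM profiles over the 9 libraries, each centred on its own mean, where 0 means the same profile. The 8 tested genes most like SAMD9 were ERAP2 (0.244), CASP4 (0.313), CARD16 (0.319), PSMB9 (0.319), GIMAP2 (0.360), PARP14 (0.556), GBP3 (0.672) and APOL2 (0.703). ERAP2 trims peptides for MHC class I, CASP4 is the inflammatory caspase that binds cytosolic lipopolysaccharide, and PSMB9 is a catalytic subunit of the immunoproteasome. PARP14 is an ADP-ribosyltransferase, GIMAP2 and GBP3 are GTPases of immune cells, and CARD16 is a caspase-recruitment domain protein closely similar to part of CASP1, so its reads may have been split between them. ERAP2 was at 6.59, 4.89 and 4.01 CPM in WT, 0.170, 0.101 and 0.169 CPM in IRF2KO and 2.19, 1.93 and 3.0 CPM in pIRF2. CASP4 was at 32.1, 23.9 and 24.3 CPM, then 2.32, 1.82 and 2.99 CPM, then 11.9, 14.5 and 14 CPM. As with SAMD9, each WT library was above each pIRF2 library for both genes. SAMD9L was the 31st nearest gene to SAMD9, at 1.13, and the 181st with profiles scaled to unit SD.

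No gene came as near to SAMD9L as these came to SAMD9. Its 8 nearest were CARD16 (0.997), IL12RB1 (1.03), OAS3 (1.08), ERAP2 (1.13), SAMD9 (1.13), PSMB9 (1.18), PARP14 (1.24) and GIMAP2 (1.26). IL12RB1, a subunit of the interleukin-12 receptor, was at 0.360, 0.457 and 0.770 CPM in WT, 0, 0 and 0.0564 CPM in IRF2KO and 0.687, 1.04 and 0.762 CPM in pIRF2, so its pIRF2 and WT libraries overlapped. OAS3, which makes the 2-5A messenger that activates RNase L, was at 6.13, 5.48 and 7.29 CPM, then 0.623, 1.52 and 0.676 CPM, then 6.23, 6.35 and 6.86 CPM. With profiles scaled to unit SD, 5 of the 8 genes nearest to SAMD9 were the same and 1 of 8 for SAMD9L, IL12RB1; SAMD9 moved from the 5th to the 53rd nearest to SAMD9L.

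**Figure D4:**
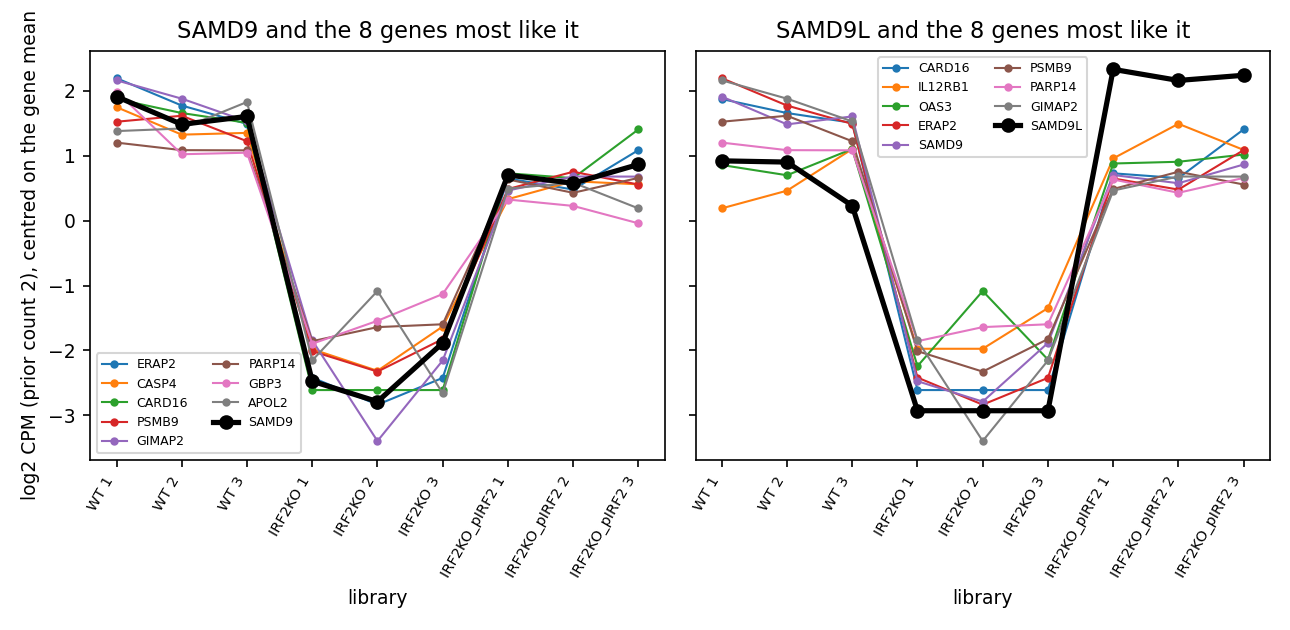
Centred log2 CPM (prior count 2, vertical axis) in the 9 libraries for SAMD9 (left, black) and SAMD9L (right, black) with the 8 tested genes most like each. The SAMD9 line lies among its neighbours, and the SAMD9L line lies above its 8 neighbours in the libraries labelled pIRF2.

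None of the tested genes reported here around the pair passed the test. The measured protein-coding genes reported here were CDK6, FAM133B, RBM48 and ERVW-1 at lower coordinates and HEPACAM2, VPS50, BET1, CASD1 and PEG10 at higher ones. HEPACAM2, the nearest at 40.2 kb, had 5 counts in all and, like PEG10, was not tested. Of the 7 tested, 0 passed edgeR's test in any comparison. Few of all tested genes did: 0.365% were called lower and 0.0521% higher in IRF2KO than in WT. A set of 7 therefore cannot tell the neighbours from tested genes at large. At an unadjusted p under 0.05 edgeR had 2, 0 and 0 of the 7 in the 3 comparisons, beside 2149, 1291 and 452 of all 11517 tested genes. The log2 differences of the 7 in IRF2KO against WT were -0.51 to 0.92. VPS50, a subunit of an endosomal recycling complex 84.0 kb away, was at 7.13 ± 1.76 CPM in WT, 5.31 ± 1.46 CPM in IRF2KO and 6.88 ± 0.475 CPM in pIRF2 (IRF2KO against WT -0.43 ± 0.23, adjusted p = 0.29). CDK6, a cyclin-dependent kinase gene 263 kb away, was at 218 ± 7.48, 192 ± 24.2 and 225 ± 3.39 CPM (-0.19 ± 0.11, adjusted p = 0.31).

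**Figure D5:**
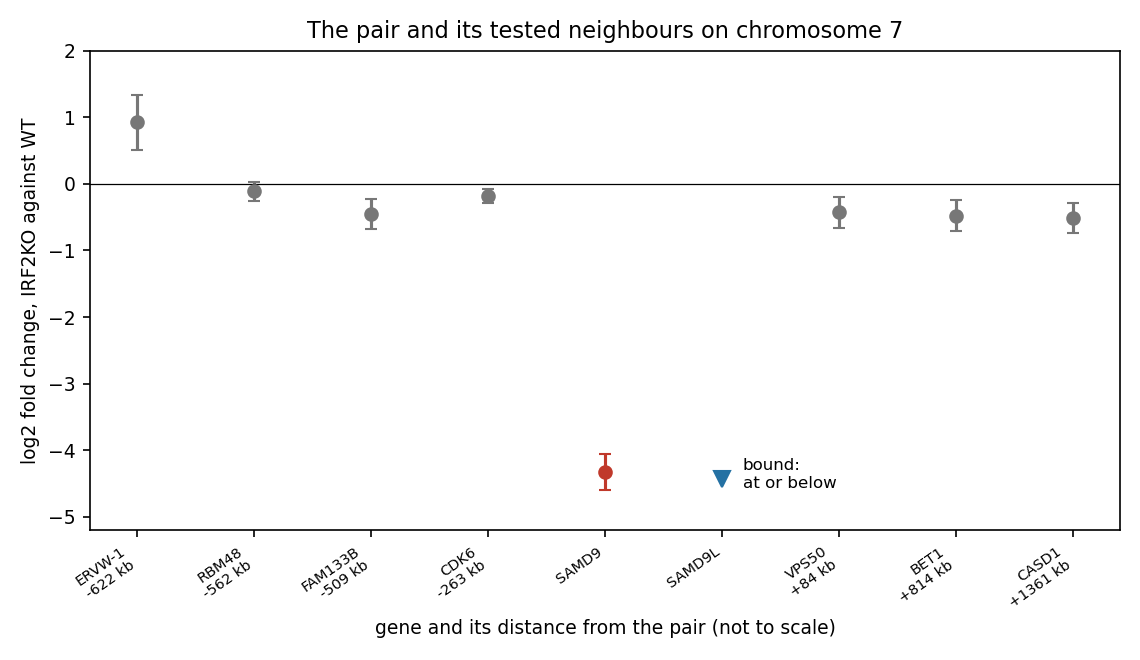
Log2 fold change in IRF2KO against WT (vertical axis, with SE) for SAMD9 and 7 tested neighbours, in chromosome order with the distance from the pair in kb; the triangle is the bound for SAMD9L, which had 0 counts in IRF2KO. The neighbours lay between -0.51 and 0.92, SAMD9 at -4.33.

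Other interferon-inducible inhibitors of translation and RNA stability, the class of effector to which SAMD9 belongs, numbered 20, of which 18 were tested. In IRF2KO against WT 2 fell and 0 rose by edgeR (3 fell by DESeq2 and 2 by limma-voom), beside 0.365% of all tested genes called lower. At an unadjusted p under 0.05 edgeR had 8 of them, beside 2149 of all 11517 tested genes. The median log2 difference was -0.32 against -0.01 over all tested genes. OAS3 fell (-2.72 ± 0.28 SE, edgeR adjusted p = 3.9e-04), as did SHFL, an inhibitor of ribosomal frameshifting (-1.75 ± 0.16, adjusted p = 1.5e-04). In pIRF2 against IRF2KO 3 rose and 0 fell by edgeR (5 rose by DESeq2 and 4 by limma-voom), beside 0.339% of all tested genes called higher: OAS3 (2.76 ± 0.28, adjusted p = 6.3e-04), SHFL (1.36 ± 0.16, adjusted p = 0.0018) and OAS2 (1.83 ± 0.32, adjusted p = 0.029). OAS2 lost its call without WT replicate 2, without IRF2KO replicate 1 or 3, and without replicate 2 or 3 of the cells labelled pIRF2 (adjusted p of 0.065 to 0.18). In pIRF2 against WT 0 passed by edgeR, DESeq2 or limma-voom (3, 2 and 3 at an unadjusted p under 0.05). EIF2AK2, the kinase PKR that stops initiation on double-stranded RNA, was at 81.8 ± 7.18, 56.5 ± 5.39 and 76.8 ± 3.59 CPM in WT, IRF2KO and pIRF2 and did not pass (IRF2KO against WT -0.53 ± 0.11, adjusted p = 0.11 by edgeR and 0.0020 by DESeq2); it was chosen after its values were seen. OAS1 shared the order of SAMD9L, at 0.895 ± 0.123, 0.225 ± 0.245 and 1.22 ± 0.164 CPM, and passed neither comparison with IRF2KO by edgeR (adjusted p = 0.23 and 0.080). In pIRF2 against IRF2KO it passed by DESeq2 (adjusted p = 0.0039), by limma-voom (0.041), and by edgeR with no low-count filter (0.035) or with the mitochondrial share as a covariate (0.041). Without IRF2KO replicate 2 it passed both, with log2 differences of -3.32 (adjusted p = 0.0086) and 3.75 (adjusted p = 0.0017).

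Of 40 other interferon-inducible antiviral genes, 31 were tested. In IRF2KO 12 fell and 0 rose by edgeR, beside 0.365% of all tested genes called lower and 0.0521% higher. By DESeq2 14 fell and 1 rose, and by limma-voom 12 fell and 0 rose. At an unadjusted p under 0.05 edgeR had 20, beside 2149 of all 11517 tested genes, and the median log2 difference of the list was -0.70. The smallest p-values were those of PARP14 (-2.85 ± 0.15, edgeR adjusted p = 3.8e-06), UBE2L6, the conjugating enzyme for ISG15 (-2.21 ± 0.13, adjusted p = 4.3e-06), DTX3L, a ubiquitin ligase (-1.53 ± 0.12, adjusted p = 2.7e-05), and IFIH1, the double-stranded RNA sensor MDA5 (-2.46 ± 0.20, adjusted p = 5.3e-05). In pIRF2 against IRF2KO 6 rose and 0 fell by edgeR (9 rose by DESeq2 and 7 by limma-voom), with a median of 0.58. Of all tested genes 0.339% were called higher there. PARP14, UBE2L6, DTX3L and IFIH1 rose by 2.3 ± 0.15, 1.33 ± 0.13, 1.01 ± 0.11 and 1.73 ± 0.20 on the log2 scale. In pIRF2 against WT 1 fell and 0 rose by edgeR (12 at an unadjusted p under 0.05), beside 0.0434% of all tested genes called lower. By DESeq2 5 fell and 0 rose. The gene called by edgeR was UBE2L6 (-0.88 ± 0.13, adjusted p = 0.029), and the median of the list was -0.23. UBE2L6 lost that call without WT replicate 2 or 3 and without any 1 library labelled pIRF2 (adjusted p of 0.082 to 0.32). Of the 31, 10 shared the order of SAMD9 and 0 that of SAMD9L.

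The receptors and factors through which interferon reaches genes such as SAMD9 and SAMD9L had no tested member past the test. Of 21 listed, 19 were tested. IRF9 had 0 counts in all 9 libraries and SOCS3 had 57 counts in all, and neither was tested. The handling of shared reads was not given, so 0 counts do not show that IRF9 RNA was absent. The 19 tested were interferon receptor chains, their kinases and SOCS inhibitors, STATs and interferon regulatory factors other than IRF2. Of these 19, 0 passed edgeR in any of the 3 comparisons, and DESeq2 and limma-voom called 0. At an unadjusted p under 0.05 edgeR had 5, 1 and 3 of them, beside 2149, 1291 and 452 of all 11517 tested genes. STAT2, for example, was at 29.7 ± 6.24, 41.0 ± 10.9 and 32.9 ± 2.37 CPM in WT, IRF2KO and pIRF2 (IRF2KO against WT 0.47 ± 0.20, adjusted p = 0.27); it was chosen after its values were seen.

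Genes tied to what the members do were measured next. These were the phenylalanine transfer RNA synthetase genes, ribosome collision and integrated stress genes, early endosome and receptor trafficking genes, and other candidate myeloid tumour suppressors on 7q. Of 43 tested, 0 passed by edgeR, DESeq2 or limma-voom in any of the 3 comparisons. At an unadjusted p under 0.05 edgeR had 2149, 1291 and 452 of all 11517 tested genes, and 6, 4 and 3 of these 43. Their log2 differences in IRF2KO against WT were -0.50 to 0.76, with a median of -0.08. EZH2, a histone methyltransferase gene on 7q, was at 64.2 ± 7.45, 55.9 ± 8.42 and 59.2 ± 3.68 CPM, and EEA1, which tethers early endosomes, at 15.2 ± 3.08, 13.0 ± 2.1 and 15.9 ± 0.441 CPM in WT, IRF2KO and pIRF2; both were chosen after their values were seen. Of 14 other genes named for a SAM domain, 8 were tested and 0 passed edgeR (2, 2 and 0 at an unadjusted p under 0.05). SAMHD1, an antiviral dNTP hydrolase, was at 4.33 ± 0.392, 4.73 ± 0.533 and 5.50 ± 0.196 CPM in WT, IRF2KO and pIRF2; it too was chosen after its values were seen.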

How the data were processed

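The deposited table holds the authors' raw read counts, per gene and not normalised, with a column for each of 9 libraries. Per the labels' protocols, RNA was isolated with a Macherey Nagel kit and libraries with the SENSE mRNA-Seq kit V2 of Lexogen. The submitters' processing notes name Bowtie2 2.3.3, TopHat2 2.1.1, SAMtools, bedtools, HTSeq 0.9.1 and hg38; the annotation release, strand setting and handling of shared reads were not given in the sources used here. Of 20265 identifiers, 20012 matched GENCODE 29. Counts were filtered with filterByExpr and TMM-scaled. The test was edgeR's quasi-likelihood F-test (edgeR 4.0.16, limma 3.58.1, R 4.3.3) on a single fit of 9 libraries, with Benjamini-Hochberg adjustment over 11517 genes at 0.05; DESeq2 1.42.0 and limma-voom were alternatives. The fit was tested on simulated data. The pair, the gene lists and the naming rule were chosen with earlier results of these data known. The rule named the pair, IRF2, 5 neighbours per side, up to 4 called genes per list and 8 genes most like each member. Some genes that the rule names are not reported here. Promoter sequences are RefSeq's, on GRCh38.p14.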

Additional observations from a re-analysis of the deposited data

How the results depend on the processing

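The alternatives were another scaling, no low-count filter, DESeq2, limma-voom, the mitochondrial share as a covariate, 2 groups per fit, leaving out libraries and a replicate block; the splits at a 15% mitochondrial share were chosen after seeing the data. Of 102 alternative values for the members, 86 moved by less than 1 SD between replicates, 16 moved more and 0 reversed. SAMD9 in IRF2KO against WT was -3.96 (log2) without the libraries at either end of the first component. SAMD9L in pIRF2 against WT was 2.17 with the covariate and 2.14 among libraries over 15%. The SAMD9L bounds were -3.65 and 5.43 without both ends, -3.37 and 5.52 over 15%, and -3.01 under 15%; a bound against 3 counts shrinks by construction with fewer IRF2KO libraries, and these sets also drop WT libraries. They have no form under DESeq2, limma-voom, the block or the covariate. Below 15%, no library labelled pIRF2 is left.

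The count of called genes rests on the tool: 48, 42 and 9 with edgeR (IRF2KO against WT, pIRF2 against IRF2KO, pIRF2 against WT) and 121, 68 and 39 with DESeq2. With 2 groups per fit the first and last were 31 and 16. The last was 18 with no filter and 27 without both ends. Over 15% the first was 26 and the last 0 by edgeR (217 at an unadjusted p under 0.05). The causes were not tested.

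Leaving out 1 library at a time gave 34 to 49, 26 to 47 and 3 to 25 called genes. The last was 25 without IRF2KO replicate 2, 3 without WT replicate 2 and 4 without any 1 library labelled pIRF2, and the 26 came without replicate 2 of those. SAMD9 ranged from -4.70 to -4.09, 3.11 to 3.72 and -1.07 to -0.84, the SAMD9L bounds from -4.67 to -3.80 and 5.43 to 6.11, and SAMD9L in pIRF2 against WT from 1.39 to 1.75. Over 23 tested results of named genes and 426 alternatives, 390 stayed on the same side of the threshold, 26 lost the call, 10 gained one and 0 reversed. The count of antiviral genes called in pIRF2 against WT was 1 with edgeR, 5 with DESeq2 and 0 to 2 with 1 library left out; over 15% the count in IRF2KO was 7.

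Deviations of same-numbered libraries correlated from -0.43 to 0.61. With 3 libraries per group these values cannot decide whether the numbers pair the libraries. A replicate block gave 39, 36 and 7 called genes; under it IRF2 in IRF2KO (adjusted p = 0.064) and UBE2L6 in pIRF2 against WT (0.060) lost their calls. SAMD9L in IRF2KO rests on 0 reads in 3 libraries, which limits it to a bound.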
